A study of Homo sapiens with 12 samples.

Results

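Long stretches of H3K27ac are runs of many neighbouring acetylation summits that lie away from gene ends. They were taken from Huh7 cells, a human hepatocellular carcinoma line, kept for 48 h at 15 or 0 µM choline. To choose them, the summits of both H3K27ac lists were pooled on chromosomes 1 to 22 and X. Summits within 2.5 kb of an end of a protein-coding gene were set aside, and the remaining distal summits were stitched where neighbours lay up to about 12 kb apart. Members were chosen by the number of pooled summits alone: a stretch was kept at 15 or more, and 604 of 12278 stitched stretches (4.92%) were kept. They covered 23.8 Mb.

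The cells at both doses were wild type. They were grown in a custom DMEM made without choline, with B-27 in place of serum, to which choline chloride was added for the 15 µM group. The 0 µM group received none, so every comparison is between a supplemented and a choline-free medium and not with ordinary culture medium. H3K27ac and H3K4me1 were each profiled by ChIP-seq in 1 library per dose, so there are 4 libraries and no replicates. A difference between doses is a difference between 2 libraries, and no test of it was possible. The study asked how choline supply changes enhancer marks in these cells and which part the transcription factor KLF5 has in it. The labels give 1 cell line only, and they do not tie the libraries to separate cultures.

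Acetylation of histone H3 at lysine 27 is laid down by p300 and CBP and marks active enhancers and promoters. Monomethylation at lysine 4 is laid down by MLL3 and MLL4 and marks enhancers, whether active or only primed. Clusters of active enhancers that lie close together are often found around the genes that set a cell's identity, in liver cells those of hepatocyte transcription factors and secreted plasma proteins. Choline is needed to make phosphatidylcholine, and its oxidation product betaine donates methyl groups to the methionine cycle. No read signal is in the summit lists, so a stretch is a run of listed positions, and whether it is a super-enhancer by signal was not measured.

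Small RNA genes give the stretches sequences that can be read directly. Of 1558 miRNA hairpins on these chromosomes in RefSeq, 29 (1.86%) lay inside a stretch, in 24 stretches. They give 39 mature sequences with 35 different seeds, and 4 seeds were held by a pair of miRNAs. The sequences below are shown because they are the 4 paired seeds, 1 sequence each from the other hairpins of the miR-17-92 cluster, and miR-21 and miR-122, known from tumours and liver, and they were chosen after the values of their stretches were seen. Each is the RefSeq mature sequence of GRCh38.p14, written 5′ to 3′, with the seed, bases 2 to 8, in capitals.
hsa-miR-17-5p: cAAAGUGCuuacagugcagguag
hsa-miR-20a-5p: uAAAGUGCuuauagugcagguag
hsa-miR-18a-5p: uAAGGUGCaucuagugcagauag
hsa-miR-19a-3p: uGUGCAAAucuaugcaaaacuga
hsa-miR-19b-3p: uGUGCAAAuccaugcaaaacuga
hsa-miR-19a-5p: aGUUUUGCauaguugcacuaca
hsa-miR-19b-1-5p: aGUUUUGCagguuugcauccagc
hsa-miR-92a-3p: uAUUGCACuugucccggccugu
hsa-miR-3666: cAGUGCAAguguagaugccga
hsa-miR-4295: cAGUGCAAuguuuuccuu
hsa-miR-21-5p: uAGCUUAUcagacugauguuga
hsa-miR-122-5p: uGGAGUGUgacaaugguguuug

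The first 8 of these come from the 6 hairpins of the miR-17-92 cluster, whose other mature sequences are not printed. The cluster is a polycistron that is amplified in lymphomas and acts on growth and survival genes. The stretch that holds the whole cluster lay at chr13:91347845-91362527 (hg38). It had 9 H3K27ac summits at 15 µM against 8 at 0 µM, with 1 H3K4me1 summit at 15 µM and 2 at 0 µM. Within it, miR-17-5p and miR-20a-5p share one seed, miR-19a-3p and miR-19b-3p share another, and miR-19a-5p and miR-19b-1-5p share one more. The seed shared by miR-3666 and miR-4295 came from separate places, one inside the span of FOXP2 with 9 H3K27ac summits at 15 µM against 7 at 0 µM, and one inside the span of VTI1A with 28 at 15 µM and 37 at 0 µM.

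miR-122, the dominant miRNA of hepatocytes, lay in a stretch at chr18:58404105-58452115 that overlaps no protein-coding gene. The stretch had 20 H3K27ac summits at 15 µM against 14 at 0 µM, and 12 H3K4me1 summits at 15 µM against 18 at 0 µM. miR-21, which is raised in many tumours, lay in a stretch over VMP1, a membrane protein of autophagy, and TUBD1, at chr17:59748382-59866203. That stretch had 43 H3K27ac summits at 15 µM against 33 at 0 µM, and 42 H3K4me1 summits at 15 µM against 55 at 0 µM. In both stretches the H3K27ac count was higher and the H3K4me1 count lower at 15 µM than at 0 µM.

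Some stretches run across gene starts, because the stitching could pass over the summits that were set aside there, and because starts of lncRNA genes and starts within protein-coding genes were not set aside. RefSeq promoter windows, 250 bases before to 50 after a start, lay inside the stretches 368 times, 205 of them of protein-coding genes and 163 of lncRNA genes. Of these windows, 9 had an H3K27ac summit inside at both doses, 42 only at 15 µM and 37 only at 0 µM. In 56 of these 88 windows (29 of lncRNA genes and 27 of protein-coding genes) a summit was itself distal, so it was among those that chose the stretch. Among all 34961 windows the counts were 305 at both doses, 565 only at 15 µM and 1186 only at 0 µM. Of the 9 windows with a summit at both doses, 2 are shown. They were picked after their values were seen, as those of a plasma protein and a growth factor receptor, and neither holds a distal summit. They are RefSeq sequences of GRCh38.p14 on the gene's own strand, 5′ to 3′. Capitals mark matches, on either strand, to GGGCGG (the GC box of SP and KLF factors). TGTTTAC (FOXA), TGANTCA (AP-1) and TATAAA were searched too and had no match in these windows, and no matches overlapped.
FGG: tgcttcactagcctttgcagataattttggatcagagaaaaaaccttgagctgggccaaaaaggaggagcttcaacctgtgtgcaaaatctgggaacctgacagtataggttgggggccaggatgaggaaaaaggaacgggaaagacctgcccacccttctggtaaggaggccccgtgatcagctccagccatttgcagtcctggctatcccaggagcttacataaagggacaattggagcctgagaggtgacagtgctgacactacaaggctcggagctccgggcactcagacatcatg
EGFR: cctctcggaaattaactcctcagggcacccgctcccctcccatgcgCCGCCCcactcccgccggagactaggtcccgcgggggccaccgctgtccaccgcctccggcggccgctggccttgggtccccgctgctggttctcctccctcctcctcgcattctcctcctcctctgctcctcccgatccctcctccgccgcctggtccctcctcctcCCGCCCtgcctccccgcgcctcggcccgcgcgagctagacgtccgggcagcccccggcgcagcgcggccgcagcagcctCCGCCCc

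FGG encodes the gamma chain of fibrinogen, and its window lies at chr4:154612607-154612906 on the minus strand. It holds an H3K27ac summit at position 154612876 at 15 µM and at 154612831 at 0 µM, and no match to any of the searched motifs. EGFR encodes the receptor of epidermal growth factor, and its window at chr7:55018767-55019066 on the plus strand holds 3 GC boxes, with summits at 55018876 at 15 µM and 55018805 at 0 µM. The GC box letters occur in 45.0% of all promoter windows. FOXA letters occur in 3.42%, AP-1 letters in 7.68% and TATAAA in 11.5%. A match describes these letters only and is not a binding site.

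Listed H3K27ac summits numbered 29305 for 15 µM and 37946 for 0 µM, of which 23509 and 28584 were distal, a ratio of 0.822. The H3K4me1 lists were longer, with 349202 summits at 15 µM and 343156 at 0 µM, a ratio of 1.02. Read depth is unknown for these files, and the length of a summit list moves with depth and enrichment as well as with chromatin. All 10 markers of hepatocytes had an H3K27ac summit within 50 kb, in all 174 at 15 µM and 152 at 0 µM. Of 15 markers of blood, stromal, endothelial, neuronal and muscle cells, 9 had a summit, with 27 at 15 µM and 24 at 0 µM. The share of all genes with a summit within 50 kb was not computed, so these counts are no check of the line's label. Long stretches lay within 50 kb of 4 hepatocyte markers (ALB, FGB, HNF4A and FOXA2) and of 0 of the others. Of all 19974 protein-coding genes, 911 (4.56%) had a long stretch within 50 kb. With so low a share, 0 of 15 does not set the other markers apart from genes at large.

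The number of pooled summits chose the stretches, so it is a description and not a finding. The median stretch held 21 pooled summits, the largest 149. The median span was 33.9 kb, with quartiles of 25.1 and 46.7 kb and a range of 9.73 to 189 kb, and the median density was 6.62 pooled summits per 10 kb. At the threshold, 70 stretches held 15 pooled summits and 69 held 14. The median span of those with 15 was 21.9 kb, and the share of summits from the 15 µM list was 49% in those with 15 and also in those with 14. Just inside were stretches over PRDM16, THADA and IRAK2, an interleukin-1 receptor kinase, the last 2 with 7 summits at 15 µM and 8 at 0 µM each. Just outside were VPS13D, with 4 at 15 µM and 10 at 0 µM, a site on chromosome 2 (chr2:55822417-55848154) and NEK10, both with 7 at either dose.

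The stretches held nearly equal numbers of H3K27ac summits at the 2 doses, 7720 at 15 µM and 7663 at 0 µM, although the 15 µM list was the shorter one. The 15 µM list gave 50.2% of the summits in the stretches (95% interval 49.4 to 51.0), against 43.0% (42.5 to 43.5) in stitched stretches of fewer summits. Intervals are exact Clopper-Pearson intervals and cover counting error only, and neighbouring summits are not independent. The same difference in direction held on 23 of 23 chromosomes. The stretches took in 32.8% of the distal summits at 15 µM and 26.8% of those at 0 µM.

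The share from the 15 µM list differed most among the small classes. It was 30.3% for single summits, 40.7% for stretches of 2 to 4, 46.9% for 5 to 9 and 48.1% for 10 to 14. Among the long stretches it lay between 49.6% and 51.0% in all 4 classes, with 50.5% for 50 or more pooled summits. The long stretches thus stand at the upper end of a gradual change with size, with no step at 15.

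**Figure D1:**
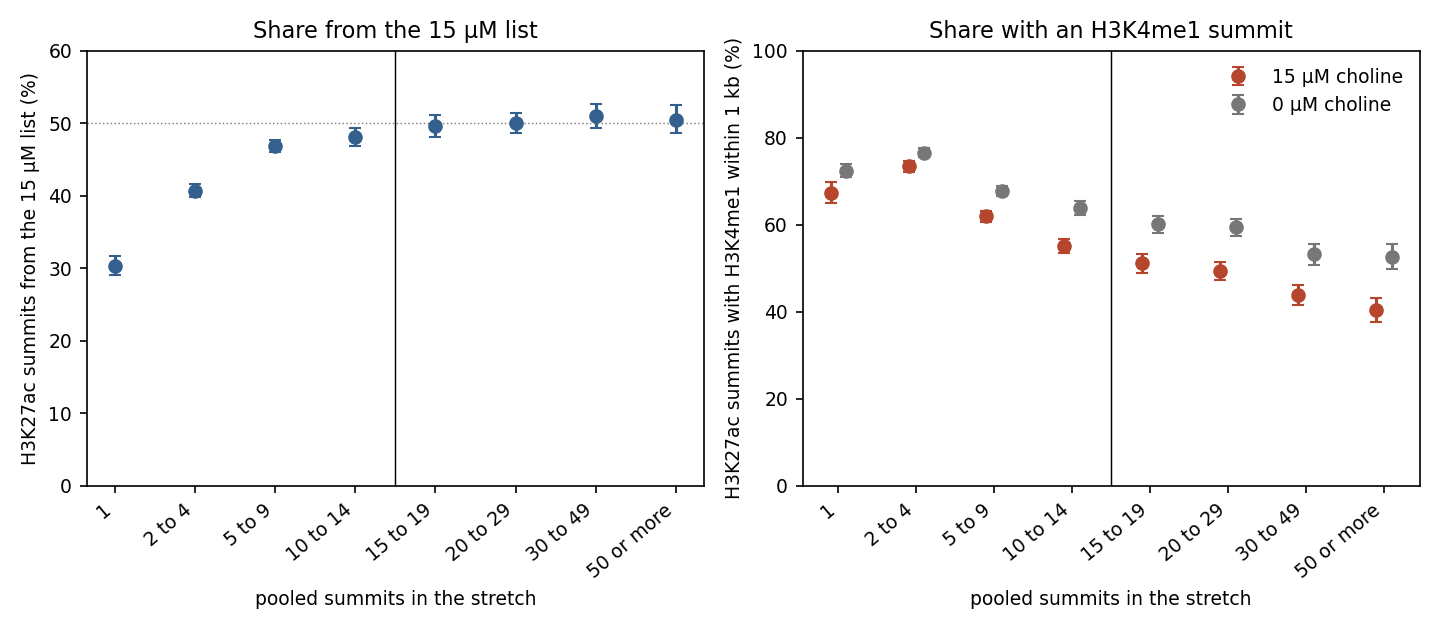
Left, percent of H3K27ac summits that came from the 15 µM list, by the number of pooled summits in the stretch; right, percent of H3K27ac summits with an H3K4me1 summit of the same dose within 1 kb, 15 µM in red and 0 µM in grey. Points are shares with 95% Clopper-Pearson intervals, and the vertical line separates the long stretches on its right. The left share goes from 30.3% for single summits to 50.5% for 50 or more, and the right shares are lowest, 40.4% at 15 µM and 52.7% at 0 µM, in the largest class.

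The size plot shows both shares by class. Its right panel gives the H3K4me1 result described further on.

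Stretch by stretch, 287 had more H3K27ac summits at 15 µM, 271 had more at 0 µM and 46 had equal numbers. A fold was computed as the 15 µM count over the 0 µM count, with 0.5 added to each, divided by the ratio of all distal summits. Its median was 1.22 (log2 0.28), the same as in stretches of 5 to 14 pooled summits, so the scaled folds sit above 1 on the whole. Any stretch with equal counts at the 2 doses has this fold, so the equal medians do not show that the groups are alike. A fold of 1.5 or more was reached by 170 stretches (28.1%), where the background over all stretches of 5 or more pooled summits was 30.7%, and 31.3% for those of 5 to 14. A fold of 1/1.5 or less was reached by 27 (4.47%), where the background was 12.7%, and 14.6% for those of 5 to 14. When the 0 µM list was cut by score to the length of the 15 µM list, 83 of 485 stretches (17.1%) reached the upper limit, where the background was 21.5%, and 4.95% the lower limit, where it was 19.3%.

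The share past the upper limit is thus near the background or somewhat under it, and the share past the lower limit is under it. Ratios of small counts vary more than ratios of large ones, and the part of this in these shares was not tested. The split depends on the scale. Of the stretches past a limit, 86.3% were higher at 15 µM with the scaling, and 50.8% with the counts as listed, when 62 stretches were 1.5-fold or more higher and 60 were as much lower. In stretches of 5 to 14 pooled summits the unscaled shares were 14.2% higher and 25% lower at 15 µM, and in the long stretches they were 10.3% and 9.93%.

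**Figure D2:**
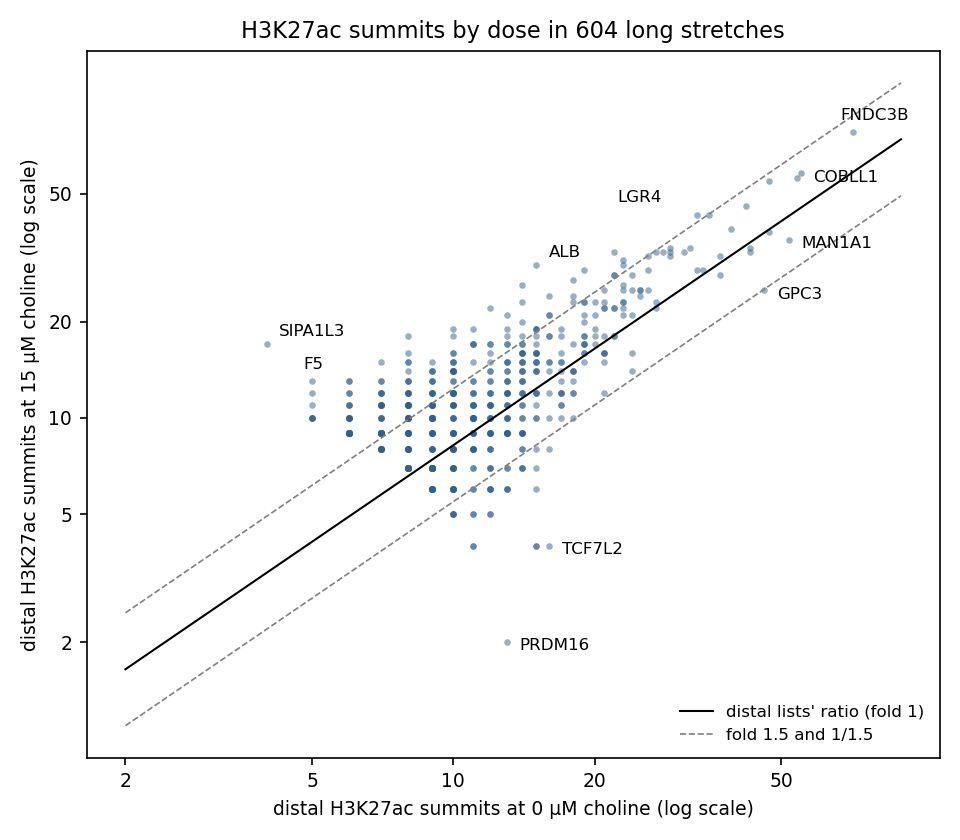
Distal H3K27ac summits in each of the 604 long stretches, at 15 µM choline (vertical, log scale) against 0 µM (horizontal, log scale). Each point is a stretch, darker where points coincide, the solid line is the ratio of all distal summits (0.822), the dashed lines are 1.5-fold above and below it, and named points are stretches over those genes. Most points lie between the dashed lines (407 of 604), with SIPA1L3 (17 at 15 µM, 4 at 0 µM) and PRDM16 (2 at 15 µM, 13 at 0 µM) farthest from the solid line.

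The plot of counts by dose has most stretches along 1 diagonal, and its outlying points are small stretches. The stretch with most summits lay in FNDC3B, which encodes a membrane protein with fibronectin type III domains, at chr3:172043718-172232500. It held 78 H3K27ac summits at 15 µM against 71 at 0 µM, a fold of 1.33, and 30 H3K4me1 summits at 15 µM against 37 at 0 µM. COBLL1, a protein with an actin-binding domain, followed with 58 H3K27ac summits at 15 µM against 55 at 0 µM over 155 kb. These 2 stretches and that of MAN1A1 had the longest spans.

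DIP2B held 56 H3K27ac summits at 15 µM against 54 at 0 µM, and 22 H3K4me1 summits at 15 µM against 36 at 0 µM. ADGRG6, an adhesion G protein-coupled receptor, held 55 H3K27ac summits at 15 µM against 47 at 0 µM. LGR4, an R-spondin receptor that strengthens Wnt signalling, held 43 at 15 µM and 35 at 0 µM. All 3 had more H3K27ac summits at 15 µM, and none reached 1.5-fold.

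MAN1A1, a Golgi mannosidase that trims N-glycans, was the other way round, with 36 H3K27ac summits at 15 µM against 52 at 0 µM, and 49 H3K4me1 summits at 15 µM against 69 at 0 µM. MEGF9, which carries EGF-like repeats, held 38 H3K27ac summits at 15 µM against 47 at 0 µM. NRP1, a co-receptor for VEGF and semaphorins, held 34 at 15 µM and 43 at 0 µM. Of the 10 stretches with most summits these 3 stood closest to the ratio of all distal summits, with folds of 0.845, 0.985 and 0.964. TLE1, a Groucho-type corepressor, held 46 at 15 µM and 42 at 0 µM, and SPTBN1, a beta spectrin, 39 at both doses.

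The stretches with the highest folds were smaller. SIPA1L3, of a family of Rap GTPase-activating proteins, had 17 H3K27ac summits at 15 µM against 4 at 0 µM, a fold of 4.73, at chr19:37929549-37963452. F5, the gene of coagulation factor V, had 13 at 15 µM and 5 at 0 µM, a fold of 2.98. H3K4me1 did not go the same way in them, with 14 summits at 15 µM and 16 at 0 µM in SIPA1L3 and 4 at 15 µM and 10 at 0 µM in F5.

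ITGB5, the integrin beta 5 chain, had 18 H3K27ac summits at 15 µM against 8 at 0 µM. STXBP6, a syntaxin-binding protein, had 11 at 15 µM and 5 at 0 µM. Another lay on chromosome 13 far from genes, 1359712 bp from the nearest one, SLITRK1, with 12 at 15 µM and 5 at 0 µM. In these 5 the 0 µM list held 8 summits or fewer.

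The lowest fold was that of PRDM16, a zinc-finger regulator known from brown fat, with 2 H3K27ac summits at 15 µM against 13 at 0 µM, a fold of 0.225, at chr1:3319914-3356408. TCF7L2, a transcription factor at the end of the Wnt pathway, had 4 at 15 µM and 16 at 0 µM. PDGFC, a platelet-derived growth factor, had 4 at 15 µM and 15 at 0 µM. All 3 kept H3K4me1 at both doses, with 15 summits at 15 µM and 20 at 0 µM in PRDM16, 12 at 15 µM and 13 at 0 µM in TCF7L2, and 5 at 15 µM and 11 at 0 µM in PDGFC.

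GPC3, a glypican used as a marker of hepatocellular carcinoma, held 2 neighbouring stretches, both lower at 15 µM. The first (chrX:133880676-133897380) had 4 H3K27ac summits at 15 µM against 15 at 0 µM. The second (chrX:133914138-134024452) had 25 at 15 µM and 46 at 0 µM, a fold of 0.667. The remaining 2 of the 6 lowest lay outside genes, each with 4 at 15 µM and 11 at 0 µM. One was 89823 bp from CDKN2B, an inhibitor of cyclin-dependent kinases, and one 108699 bp from FUT8, the core fucosyltransferase.

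The densest stretches were short. TNFSF4, the OX40 ligand, had 10 H3K27ac summits at 15 µM against 6 at 0 µM over 10.2 kb. SLC23A2, an ascorbate transporter, had 9 at 15 µM and 7 at 0 µM, and CORO1C, a coronin, 9 at 15 µM and 6 at 0 µM. The lists do not tell whether summits this close are separate sites or parts of 1 broad domain.

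**Figure D3:**
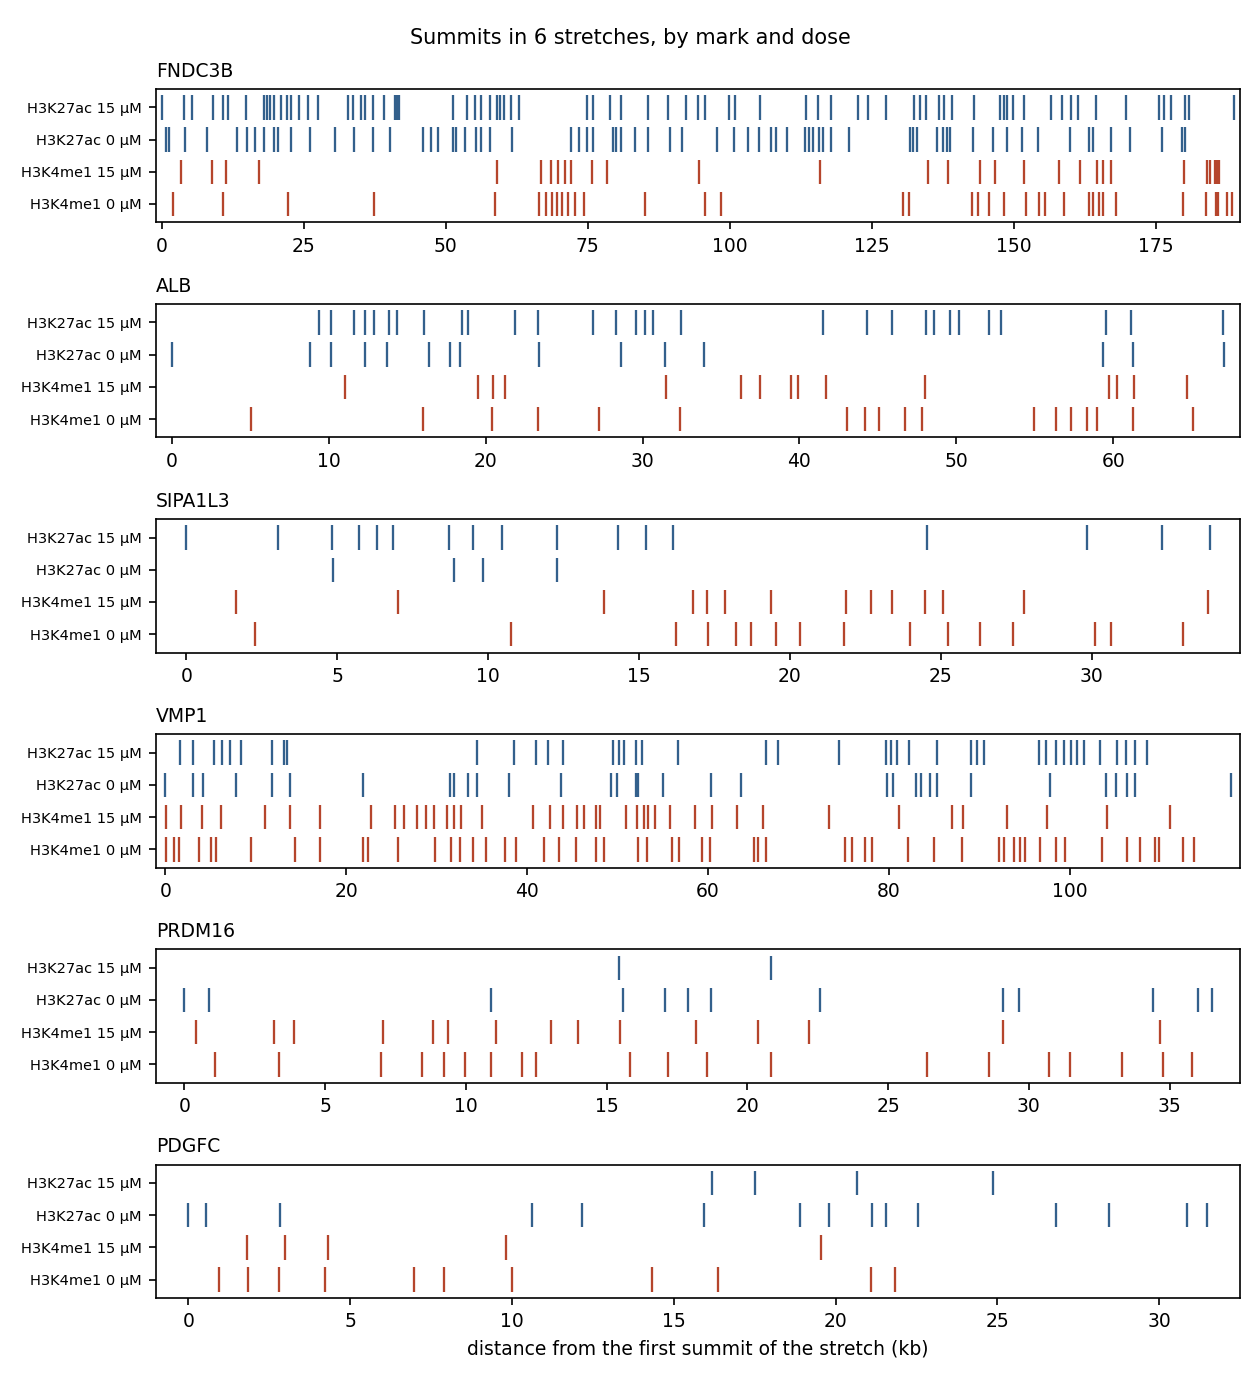
Positions of distal H3K27ac summits (blue) and all H3K4me1 summits (red) in 6 long stretches, with the 15 µM row above the 0 µM row for each mark; the horizontal axis is the distance in kb from the first summit of the stretch, on its own scale in each panel. Each bar is 1 summit and its height has no meaning. SIPA1L3 has 17 H3K27ac summits at 15 µM against 4 at 0 µM, PRDM16 has 2 against 13, and FNDC3B has 78 against 71 along 189 kb.

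The map of 6 stretches shows that summits of the doses often interleave without coinciding. In the stretches, 49.7% of the 15 µM summits (48.5 to 50.8) had a 0 µM summit within 500 bp, and 48.9% of the 0 µM summits (47.8 to 50.1) had a 15 µM summit. Outside them the shares were 48.4% of the 15 µM summits and 36.0% of the 0 µM summits. The outside shares include single-summit stretches, where a partner is nearly barred by the stitching itself (0.628% at 15 µM and 0.122% at 0 µM). Among stretches of 2 to 4, 5 to 9 and 10 to 14 pooled summits the 15 µM share was 55.2%, 52.6% and 51.2%, and the 0 µM share was 38.2%, 45.3% and 46.3%. With size, the 15 µM share thus went down and the 0 µM share up to the long stretches. The highest-scoring summits of the 2 doses lay within 500 bp of each other in 272 of the 604 stretches.

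Stitched from 1 dose alone, 437 stretches stayed in 1 piece at 15 µM, 146 fell into 2 and 21 into 3 or more. At 0 µM the numbers were 469, 121 and 14. Both doses gave 1 piece in 357 stretches. One piece means only that no gap between summits of that dose was wider than the stitching distance, and a few summits close together count too, as in PRDM16 with 2 summits at 15 µM over 14.8% of the span. The 15 µM summits reached over a median of 95.1% of the span and the 0 µM summits over 97.5%, and the median widest gap was 9.96 kb at 15 µM and 9.66 kb at 0 µM. At 15 µM alone 152 stretches held 15 or more summits, at 0 µM alone 143 did, and 107 did at both.

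Runs of summits from 1 dose were short, with a median longest run of 3 in a row at either dose and a maximum of 9 at either. Scores are those the authors deposited and were compared within 1 list at a time. In the 15 µM list the median score was 10.7 in the stretches and 10.2 in other distal summits. In the 0 µM list it was 11.5 and 10.7. Of the 1000 highest-scoring distal summits, 456 at 15 µM and 444 at 0 µM lay in the stretches, which hold 32.8% and 26.8% of each list's distal summits.

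H3K4me1 was not used to choose the stretches, and in their spans it had fewer summits at 15 µM than at 0 µM. The spans held 7574 H3K4me1 summits at 15 µM against 8874 at 0 µM, a ratio of 0.854, where the whole lists stood at 1.02. The 15 µM count was the lower one in 406 stretches, the higher one in 141 and equal in 57. The ratio in the spans was below that of the whole chromosome on 22 of 23 chromosomes, and chromosome 20 was the exception, with 0.972 in the spans and 0.874 over the chromosome.

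The lower H3K4me1 count at 15 µM was shared with smaller stretches, whose spans gave a ratio of 0.888. Scaled by list length, the median H3K4me1 fold was 0.832 in the long stretches. A fold of 1/1.5 or less was reached by 134 stretches (22.2%), where the background was 26.7%, and 27.8% for stretches of 5 to 14. A fold of 1.5 or more was reached by 18 (2.98%), where the background was 10.2%, and 11.8% for stretches of 5 to 14. Both shares lie under the background, and the part of count size in this was not tested.

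**Figure D4:**
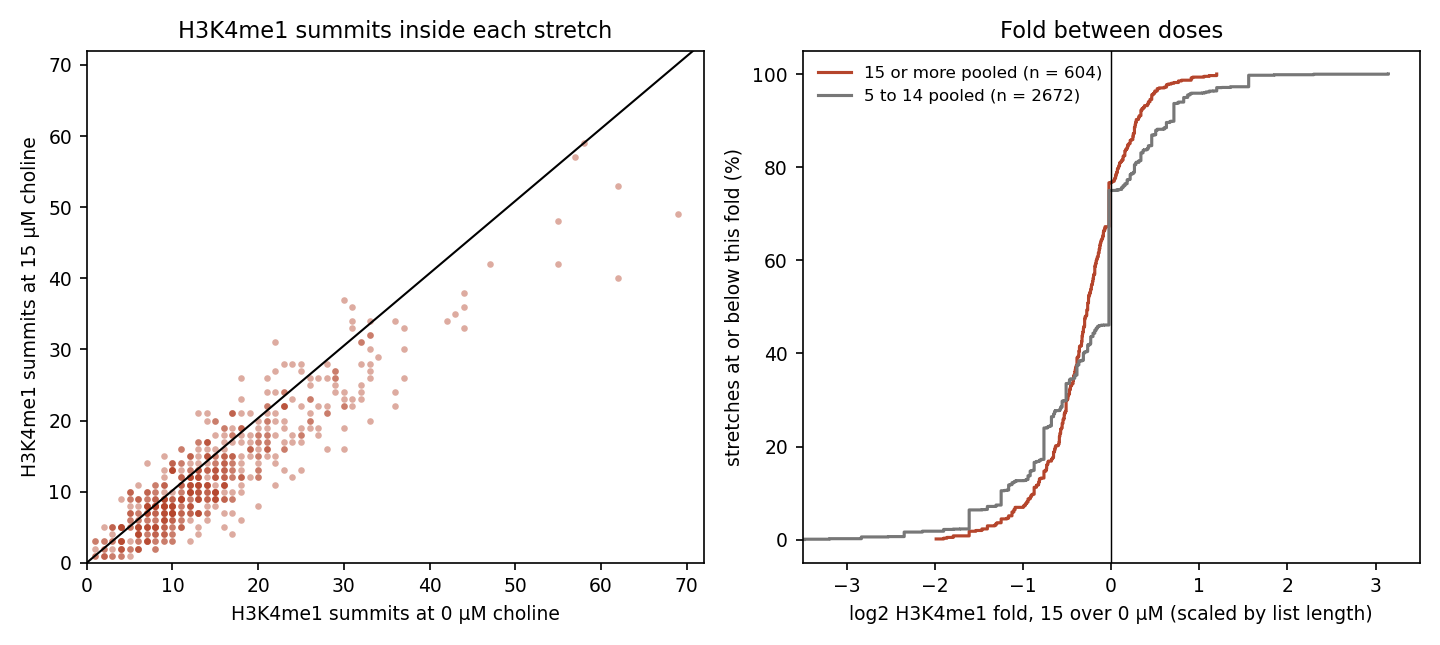
Left, H3K4me1 summits inside each long stretch at 15 µM (vertical) against 0 µM (horizontal), with a line at the ratio of the whole lists (1.02); right, cumulative percent of stretches at or below a log2 H3K4me1 fold (15 over 0 µM, scaled by list length) for the 604 long stretches in red and 2672 stretches of 5 to 14 pooled summits in grey. Most points lie below the line (406 stretches had fewer summits at 15 µM, 141 had more), and the long stretches reach past the 1.5-fold limits less often at both ends. The step at 0 in the grey curve comes from small stretches with equal counts.

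The H3K4me1 plot sets each stretch's counts side by side. The stretches with the highest H3K4me1 folds had few summits. ADGRL2, a latrophilin, and SGMS1, a sphingomyelin synthase, each had 3 at 15 µM and 1 at 0 µM, and PKP4, a plakophilin, had 5 at 15 µM and 2 at 0 µM. At the other end, a stretch 205071 bp from KCNRG on chromosome 13 had 4 at 15 µM and 17 at 0 µM. One over the POC1B-DUSP6 locus had 1 at 15 µM and 5 at 0 µM. One 622758 bp from TBL1XR1, a corepressor subunit, had 3 at 15 µM and 12 at 0 µM.

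The POC1B-DUSP6 stretch was among those higher in H3K27ac, with 15 summits at 15 µM and 8 at 0 µM. By counts as listed, H3K27ac was higher and H3K4me1 lower at 15 µM in 198 stretches, and both were lower in 182. Both were higher in 62, and H3K27ac was lower with H3K4me1 higher in 62. Stretches with equal counts of either mark are in none of these groups. Across the 604 stretches the log2 folds of the marks had a Pearson r of 0.0156 and a Spearman coefficient of -0.0126, a description over stretches that share their libraries. Both values are near 0.

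H3K4me1 summits were sparser in the long stretches than in smaller ones, with 3.18 per 10 kb at 15 µM and 3.73 at 0 µM, against 3.62 and 4.07. This compares stitched stretches only and does not mean that H3K4me1 was scarce against the rest of the genome. The 23.8 Mb of long stretches held 2.17% of the H3K4me1 list at 15 µM and 2.59% at 0 µM. The scores of H3K4me1 summits in the spans were higher than elsewhere in the same list. The median was 6.43 in the spans and 3.44 elsewhere at 15 µM, and 6.08 and 3.48 at 0 µM. An H3K4me1 summit of the same dose lay within 1 kb of 47.1% (46.0 to 48.2) of the H3K27ac summits at 15 µM, against 57.1% (55.9 to 58.2) at 0 µM. Outside the long stretches these shares were 64.5% at 15 µM and 70.8% at 0 µM.

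So an H3K27ac summit in a long stretch had an H3K4me1 summit beside it less often than one elsewhere, at each dose. From stretches of 2 to 4 onward the share went down, from class to class, to 40.4% at 15 µM and 52.7% at 0 µM in stretches of 50 or more. In FNDC3B, 25 of 78 summits at 15 µM and 21 of 71 at 0 µM had one. In LGR4, 5 of 43 at 15 µM and 14 of 35 at 0 µM had one.

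Most long stretches lay in genes. A protein-coding gene was overlapped by 475 of 604 (78.6%, 75.2 to 81.8), against 1681 of the 2672 stretches of 5 to 14 (62.9%, 61.0 to 64.7). Spans were not matched, with medians of 33.9 kb for the long stretches, 7.17 kb for 5 to 9 summits and 17.2 kb for 10 to 14. The part of span length in the overlap was not tested. Of the span itself, 74.1% lay in genes in the long stretches and 62.6% in stretches of 5 to 14. Of the long stretches 433 overlapped 1 gene, 40 overlapped 2, 2 overlapped 3 and 129 overlapped none, and 346 lay wholly inside genes. The gene table gives no exons, so exonic and intronic positions cannot be given here.

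The 129 stretches outside genes lay a median of 51.8 kb from the nearest gene, with 45 over 100 kb away. A lncRNA gene lay in 213 stretches, 80 of which held no protein-coding gene, and 259 of 18177 lncRNA genes (1.42%) were overlapped. In all, 477 of 19974 protein-coding genes (2.39%) overlapped a long stretch. Several stretches shared a gene in 38 cases, and MAML3, a Notch coactivator, RBM47, an RNA-binding protein, SOX5, a SOX-family transcription factor, and THADA had 3 each.

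Genes with a stretch were long, with a median of 117 kb against 24.2 kb for all genes. The share of genes with a stretch was 0.318% below 10 kb, 1.02% at 10 to 50 kb, 3.92% at 50 to 100 kb, 7.11% at 100 to 200 kb and 8.88% at 200 kb or more. The summits that make up a stretch had to lie over 2.5 kb from gene ends, which leaves less room for them in short genes. Lengths were not matched between the lists of genes that follow, so the share and median gene length of each list described are given with its count, and the share of all genes is 2.39%.

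Among 20 lists, chosen with earlier results of these data known, that of hepatocyte regulators had the highest share. Of 20 liver transcription factors, 9 (45.0%) overlapped a long stretch, among them HNF4A, ONECUT1, ONECUT2, CEBPA, PROX1, GATA4, NR5A2 and XBP1, and their list has a median gene length of 21.7 kb. HNF4A, a nuclear receptor central to hepatocyte identity, had 23 H3K27ac summits at 15 µM against 27 at 0 µM, and 35 H3K4me1 summits at 15 µM against 43 at 0 µM. It passed no limit.

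ONECUT1 and ONECUT2, cut-homeobox factors of liver development, had 7 and 8 H3K27ac summits at 15 µM against 9 and 12 at 0 µM. XBP1, which drives secretory genes under stress of the endoplasmic reticulum, had 22 at 15 µM and 12 at 0 µM, a fold of 2.19. FOXA2, a pioneer factor of endoderm, had 2 stretches within 50 kb, and both lay outside the gene. The nearer one had 11 summits at 15 µM and 6 at 0 µM, the other 7 at 15 µM and 11 at 0 µM. Stretches beside these factors thus went in both directions between the doses.

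Plasma protein genes had 6 of 30 (20%; median length 15.8 kb), ALB, FGA, FGB, FGG, F5 and CP. The ALB stretch, over the albumin gene at chr4:73365516-73432583 and 3638 bp from AFP, the alpha-fetoprotein gene, had 30 H3K27ac summits at 15 µM against 15 at 0 µM, a fold of 2.39, and 15 H3K4me1 summits at 15 µM against 18 at 0 µM. The fibrinogen genes FGG, FGA and FGB share 1 stretch of 11 distal H3K27ac summits at 15 µM against 8 at 0 µM. CP, the copper carrier ceruloplasmin, went the other way, with 14 at 15 µM and 24 at 0 µM.

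The list of nuclear receptors had 4 of 25 (16.0%; median length 48.5 kb). HNF4A and NR5A2, which also overlap a stretch, are nuclear receptors too but were counted with the liver transcription factors. NR1H4, the bile acid receptor FXR, had 27 H3K27ac summits at 15 µM against 18 at 0 µM in one stretch, and a second one 17969 bp from the gene had 13 at 15 µM and 6 at 0 µM. RARB, a retinoic acid receptor, had 14 at 15 µM and 10 at 0 µM, and THRB, a thyroid hormone receptor, 12 at 15 µM and 9 at 0 µM. NR2F2, the orphan receptor COUP-TFII, had 6 at 15 µM and 10 at 0 µM. Bile acid genes had 2 of 18 (11.1%; median length 28.9 kb), with KLB, the FGF19 co-receptor beta-klotho, at 14 and ABCC3, an export pump, at 10 at 15 µM, against 10 for KLB and 11 for ABCC3 at 0 µM.

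Of 24 genes of choline uptake and phosphatidylcholine synthesis, 2 (8.33%; median length 49.5 kb) overlapped a stretch. CHKA, the choline kinase that starts the Kennedy pathway, had 15 H3K27ac summits at 15 µM against 14 at 0 µM, and 21 H3K4me1 summits at 15 µM against 22 at 0 µM. PLD1, a phospholipase D that frees choline from phosphatidylcholine, had 6 H3K27ac summits at 15 µM against 13 at 0 µM, a fold of 0.585, and 12 H3K4me1 summits at 15 µM against 11 at 0 µM. Of 20 genes of the betaine, methionine and folate cycle (median length 28.9 kb) 0 did, and of 21 listed KLF and SP factors (35.5 kb) 0 did. SP8, which is outside that list, did overlap a long stretch, with 6 H3K27ac summits at 15 µM against 10 at 0 µM. KLF5, the factor the study asked about, had no long stretch within 50 kb, and its nearest stitched stretches held 5 and 7 pooled summits, with 4 each at 15 µM and 1 and 3 at 0 µM.

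**Figure D5:**
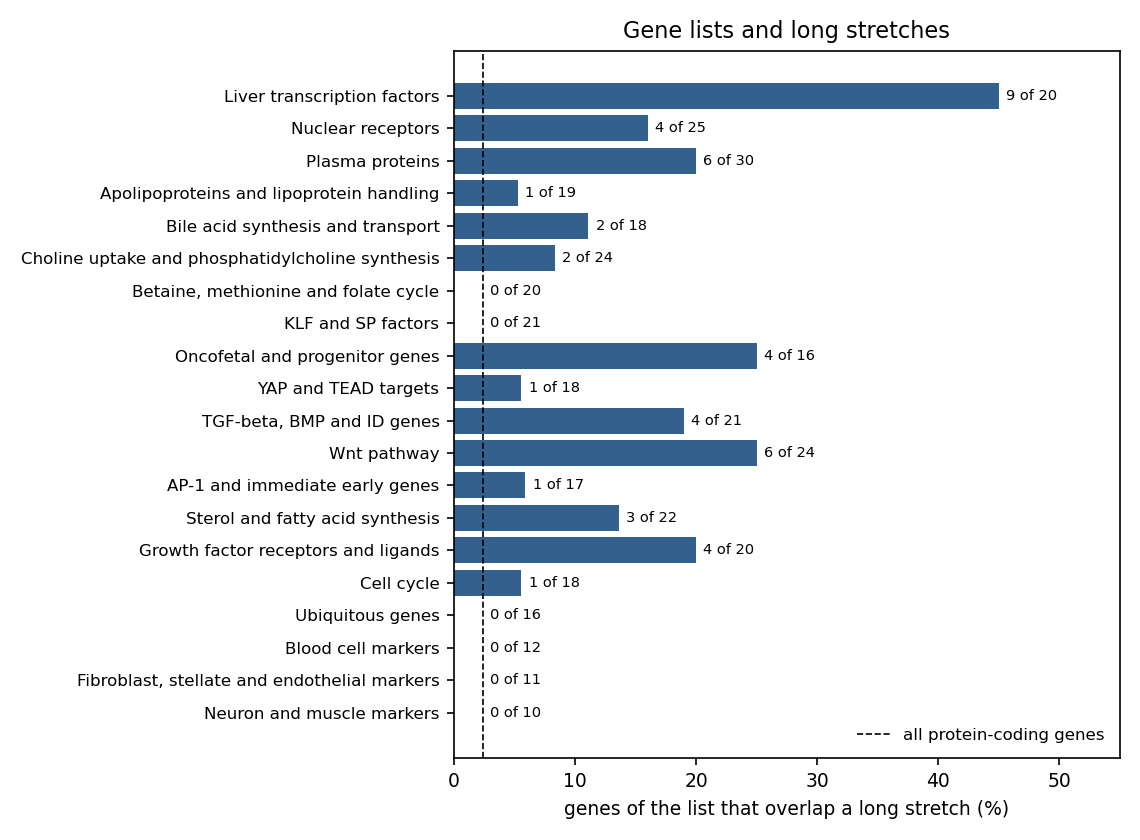
Percent of the genes in each of 20 lists that overlap a long stretch, with the counts beside the bars; the dashed line is the share of all 19974 protein-coding genes (2.39%). Liver transcription factors have the highest share (9 of 20), and 6 lists have none. Gene lengths differ between lists and are not matched, and the lists were chosen with earlier results of these data known.

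The plot of gene lists gives all 20. Oncofetal genes had 4 of 16 (25%; median length 20.3 kb), GPC3, IGF2BP1, IGF2BP3 and LIN28B. IGF2BP1, an mRNA-binding protein of fetal tissue, had 7 H3K27ac summits at 15 µM against 12 at 0 µM. Its relative IGF2BP3 had 12 at 15 µM and 10 at 0 µM, and LIN28B, a repressor of let-7 processing, 11 at 15 µM and 9 at 0 µM. With GPC3, 2 of these 4 genes had fewer summits at 15 µM and 2 had more.

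The Wnt pathway had 6 of 24 (25%; median length 83.1 kb), LGR4, LRP5, TCF7L2, RNF43, ZNRF3 and TLE1. LRP5, a Wnt co-receptor, had 14 H3K27ac summits at 15 µM against 10 at 0 µM. RNF43, a ubiquitin ligase that removes Frizzled receptors, had 12 at 15 µM and 13 at 0 µM. TCF7L2 alone among the 6 had a fold of 1/1.5 or less, and the stretches of the other 5 lay between 1.13 and 1.68.

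Growth factor genes had 4 of 20 (20%; median length 70.0 kb). EGFR had 2 stretches, of 26 H3K27ac summits at 15 µM against 23 at 0 µM, and of 15 at 15 µM and 10 at 0 µM. MET, the receptor of hepatocyte growth factor, had 15 at 15 µM and 14 at 0 µM. With PDGFC and NRP1 the list thus held receptors near or above the distal ratio and 1 ligand below it.

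TGF-beta genes had 4 of 21 (19%; median length 54.8 kb). TGFBR2, a receptor, had 25 H3K27ac summits at 15 µM against 26 at 0 µM, and SMAD3, its effector, 17 at 15 µM and 18 at 0 µM. The inhibitory SMAD6 had 10 at 15 µM and 6 at 0 µM, and SMAD7 had 14 at 15 µM and 12 at 0 µM. TGFBR2 and SMAD3 thus had near-equal counts, and SMAD6 and SMAD7 had more at 15 µM. Of all 604 long stretches 287 had more at 15 µM and 271 had more at 0 µM, so these 4 genes set no pattern for the pathway.

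Sterol and fatty acid genes had 3 of 22 (13.6%; median length 33.1 kb). SREBF2, the sterol-sensing transcription factor, had 14 H3K27ac summits at 15 µM against 9 at 0 µM. SCD, the stearoyl-CoA desaturase, had 12 at 15 µM and 17 at 0 µM, and ELOVL2, a fatty acid elongase, 14 at 15 µM and 16 at 0 µM. Lists with 1 gene were lipoproteins (SCARB1, 8 at 15 µM and 10 at 0 µM), YAP and TEAD genes (YAP1, 8 at 15 µM and 10 at 0 µM), immediate early genes (DUSP6, 7 at 15 µM and 8 at 0 µM) and the cell cycle (RB1, 9 at both doses), with shares of 5.26 to 5.88% and median lengths of 5.27 to 22.7 kb. Ubiquitous genes and the markers of blood, stromal and endothelial, and neuron and muscle cells had none, with median lengths of 5.18 to 38.4 kb.

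Gene ends inside the long stretches were examined apart, since the rule set their summits aside. The spans held 346 H3K27ac summits near gene ends at 15 µM against 334 at 0 µM, a ratio of 1.04, in 128 stretches. In the whole lists there were 5796 such summits at 15 µM and 9362 at 0 µM, a ratio of 0.619. The lower count near gene ends at 15 µM was thus not seen within the stretches. This was not particular to gene ends. Distal summits in the long stretches numbered 7720 at 15 µM and 7663 at 0 µM. In smaller stretches they numbered 15789 at 15 µM and 20921 at 0 µM.

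The stretch over FGG, FGA and FGB had most of them, 14 at 15 µM and 12 at 0 µM, followed by that over CCDC117 and XBP1 with 11 at 15 µM and 7 at 0 µM. SP8, a zinc-finger factor of limb and brain development that is not in the list of KLF and SP factors, came next with 8 at 15 µM and 7 at 0 µM. Among the 170 genes with an end inside a stretch, 126 had a summit within 1 kb of either end in the 15 µM list. In the 0 µM list 137 did. The end with the summit can lie outside the stretch. In SDC1 it did, since no summit near a gene end lay inside its stretch at either dose.

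Of those 137 genes, 11 (8.03%, 4.08 to 13.9) had no summit within 2 kb of either end at 15 µM. The background over all genes was 43.9%. Of those 126 genes, 5 (3.97%, 1.30 to 9.02) had none within 2 kb of either end at 0 µM, where the background was 10.5%. The share without a 15 µM summit was lower among genes with an end inside a stretch than among other genes (44.8%, 43.5 to 46.2). A gene end in a dense region is more likely to have any summit within 2 kb, and its part in the result was not tested. The 11 genes were PDLIM1, EIF4B, ZC3H7A, ZNF552, SDC1, POFUT1, FAM47E, JADE2, CFTR, AKR1D1 and APOO, and the 5 were IGF2BP1, TUBD1, CEACAM19, PACSIN2 and ZIC4.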

How the data were processed

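H3K27ac and H3K4me1 ChIP-seq of Huh7 cells at 15 and 0 µM choline was analysed from 4 summit lists, 1 per library. Of 12 samples, 8 (inputs, RNA-seq and CUT&Tag) were not analysed here. Tools named, per the submitters' processing notes, are MACS2, Bowtie, deepTools and Picard, with build hg38. Versions, caller settings, use of inputs and read depth are not given in the sources used here. Each deposited line gives a summit position and a score, read from the MACS2 layout of the authors' files as −log10 p or q (p-value or q-value) and used only within a list. Scores started at 5.01 in both H3K27ac lists and at 1.30 and 1.31 in the H3K4me1 lists at 15 and 0 µM, so lists of the 2 marks are not compared with each other.

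Genes (19974 protein-coding), promoters and miRNAs came from RefSeq tables of GRCh38.p14, with no exons. Distal summits up to 12.5 kb apart were stitched. Summits were shared within 500 bp and carried H3K4me1 within 1 kb. A gene was counted as having a summit where one lay within 1 kb of either of its ends. Folds added 0.5 to each count and were scaled by the ratio of distal H3K27ac summits or of H3K4me1 list lengths, with limits of 1.5 and 1/1.5 against the background of 3276 stretches of 5 or more pooled summits. With 1 library per group no p-value was computed, and shares have Clopper-Pearson 95% intervals. Python 3.11.15, pandas 2.3.3, numpy 2.4.6 and scipy 1.17.1 were used, and the counting was tested on simulated data.

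The members and gene lists were chosen with earlier results of these data known. The rule for names took the 10 stretches with most summits, the 6 highest and 6 lowest H3K27ac folds, 3 each by span, density, H3K4me1 fold in either direction and summits near gene ends, up to 3 each with 15 and 14 pooled summits, and up to 4 genes per list. Stretches bear the name of the genes they overlap or of the nearest one. Some items named by this rule are left out of the text. Other names were chosen after their values were seen. Alternatives covered stitching distance, distance from gene ends, the minimum of pooled summits, scores, list lengths, matching distances, scaling and the fold limit.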

Additional observations from a re-analysis of the deposited data

Results flagged for a closer look

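One signal lay outside the chromosomes that the stretches were drawn from. The unplaced scaffold GL000195.1 held 21 H3K27ac summits, 11 at 15 µM against 10 at 0 µM, that stitched into 1 stretch between positions 67023 and 86475. It was singled out because its count is above the limit of 15 pooled summits while the scaffold was left out of every comparison. The gene ends of the scaffold were not examined, so its summits are not known to be distal. Groups of 1 library allow no check for samples that stand apart.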

How the results depend on the processing

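Of 94 values computed under other settings for 10 results, 46 stayed within the set tolerance and 48 moved. Stitching at 5 kb gave 399 stretches, of which 307 overlapped a gene, 14 were past the lower limit, 51.6% of H3K27ac summits and 43.9% of H3K4me1 summits came from the 15 µM list, 50.8% of 15 µM and 53.0% of 0 µM summits were shared, and 47.4% had H3K4me1 nearby (main value 52.1% with the doses pooled). No gene end lies inside a stretch then, so that share could not be computed. At 20 kb, 47.1% of 0 µM summits were shared, 53.8% had H3K4me1, and 46.9% of H3K4me1 summits were from 15 µM (main value 46.0%). With 10 or more pooled summits there were 1208 stretches (916 over a gene, 328 above and 104 below the limits, 54.4% with H3K4me1), and with 20 or more 342 (295, 81, 7 and 50.6%). Scores of at least 10 left 194 stretches, with 167 over a gene, 59 above and 6 below. Of their summits, 45.0% and 45.1% were shared at 15 and 0 µM, and 46.4% had H3K4me1 nearby. Of genes with an end inside a stretch and a 0 µM summit, 3.03% had no 15 µM summit. Lists of equal length gave 55.9% from 15 µM (50.6% outside), 83 above, 44.5% and 54.1% shared and 50.1% with H3K4me1. The share of such genes was then 3.23%.

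Scaling by whole lists left 15 below, and a limit of 2 left 33 above and 6 below. No scaling gave 62 above and 60 below. Sharing within 200 bp was 26.9% at 15 µM and 27.1% at 0 µM, and within 2 kb 86.6% and 82.7%. H3K4me1 nearby was 53.0% with ends set at 1 kb, 31.2% within 500 bp, 75.9% within 2 kb and 43.5% with H3K4me1 scores of at least 5; under every setting run it was lower in the stretches than outside, and the H3K27ac share from 15 µM was higher in them than outside. The unscaled counts, the settings of the H3K4me1 share and those of the gene-end share were chosen after seeing the data. The causes were not tested beyond what each setting changes by construction. No paired analysis was possible because each mark and dose has 1 library. Read depth is unknown, the scale of the scores between lists is unknown, and a dose difference cannot be told apart from a difference between 2 libraries.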
